A study of Mus musculus with 24 samples.

Results

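The knockout effect shared by brain regions was taken as the mean of 3 regional differences, knockout minus control in cerebellum, cortex and striatum, for each of 11114 genes. All 24 of the 24 arrays of the study entered it, 8 from each region. They form 6 groups of 4, named in the labels Nestin Con and Nestin THAP1 KO for each region, all from brain at postnatal day 21. All groups carry Nestin in their name. Its promoter commonly drives Cre recombinase in the precursors of neurons, astrocytes and oligodendrocytes, while microglia, blood and vessel cells arise from other lineages. The sources used here do not say whether controls also carried a conditional Thap1 allele. Per the design text 4 mice of each genotype were used, but the labels do not say which arrays came from the same mouse. Each genotype has more arrays than mice, so on that count some arrays must share a mouse. Where such arrays of different regions resemble each other, the p-values of the mean are too small. A second test was therefore run with the standard error at the upper bound it would reach if those arrays were fully alike. It kept the degrees of freedom of separate arrays, so its p-values can still be too small.

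THAP1 is a transcription factor with a zinc-binding THAP domain, which binds short promoter motifs, and mutations of its gene cause an inherited dystonia. Myelin genes are expressed by oligodendrocytes as they wrap axons. The unfolded protein response raises chaperones of the endoplasmic reticulum (ER) when unfolded protein accumulates there, through the transcription factors XBP1 and ATF6 and through the kinase PERK, which acts by ATF4. In bulk tissue, fewer cells of a type and less RNA per cell cannot be told apart.

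Mean signal per array ranged from 287 to 570, and 47.2 to 54.5% of 25697 probes were detected. The arrays carried the markers of their labelled regions. Averaged over 14 markers of Purkinje and other cerebellar neurons, the log2 intensity was 9.09 to 9.55 on cerebellum arrays and 5.70 to 6.09 elsewhere. Averages of 12 markers of cortical excitatory neurons were 9.08 to 9.26 on cortex arrays and 6.27 to 7.82 elsewhere. Those of 13 markers of striatal projection neurons were 9.36 to 10.05 on striatum arrays and 5.63 to 8.64 elsewhere. Precision is limited by having 4 arrays a group.

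The targeted gene was read by 3 probes. Probe ILMN_2603593 was detected on 8 of 12 control and 0 of 12 knockout arrays, so that no fold change is given for it (limma, adjusted p = 5.89e-05 over all probes). Probe ILMN_2907066 was detected on 10 of 12 control and 1 of 12 knockout arrays, and was lower in the knockout with no fold change given for the same reason (limma adjusted p = 0.0121 over all probes). The brightest probe, ILMN_1258989, which stands for Thap1 among the genes, rose by 0.78 (SE 0.13, limma adjusted p = 0.000423). Averaged over the probes the difference was -0.13 and did not pass (limma adjusted p = 0.520). The sources used here do not place these probes relative to the deleted part of Thap1. Any probe outside that part checks nothing.

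For the mean effect, 257 of 11114 genes passed a Benjamini-Hochberg adjusted p of 0.05 (limma, 2.31% of genes tested), of which 124 were higher (1.12%) and 133 lower (1.2%) in the knockout. At an unadjusted p under 0.05 there were 1600 (14.4%). Single regions gave fewer calls, 26 in cerebellum (0.234%), 61 in cortex (0.549%) and 60 in striatum (0.54%). Most of the shared changes were small. The median absolute mean difference of called genes was 0.42 on the log2 scale, with 8 falls and 3 rises above 1, against a median standard error of 0.096 over all genes. Of the 257, 173 passed in no single region.

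**Figure D1:**
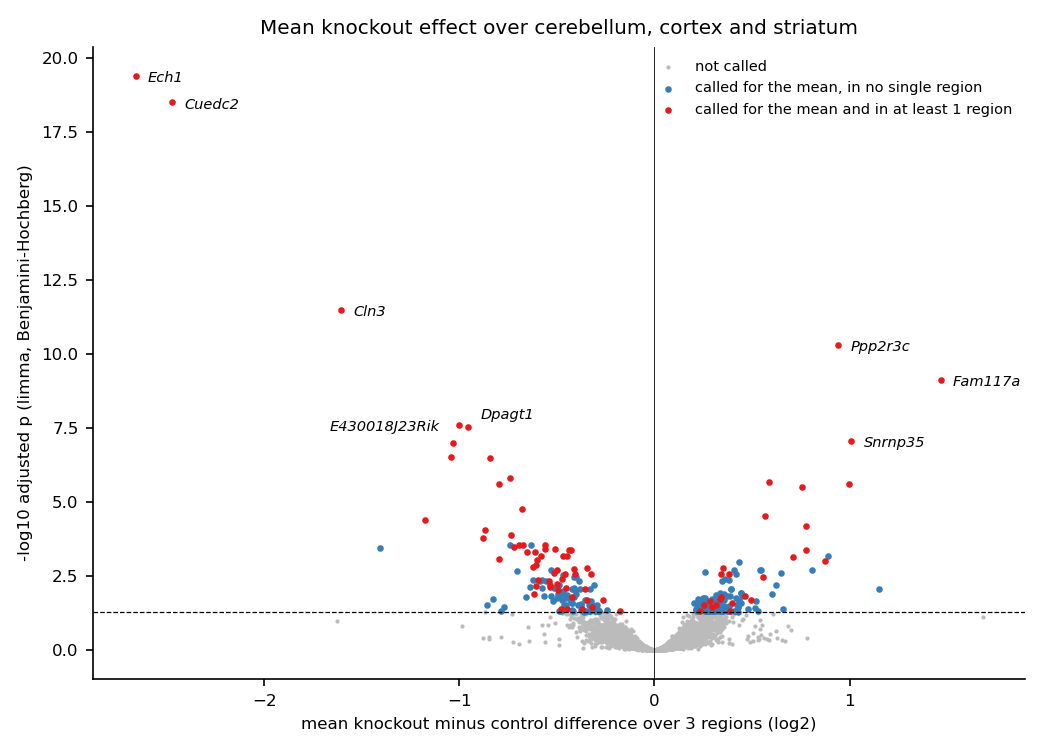
Mean knockout minus control difference over 3 regions (x axis, log2) against -log10 of the limma adjusted p (y axis) for 11114 genes, with the dashed line at the threshold. Red points passed also in at least 1 region, blue points, 173 in number, passed only for the mean, and the 8 labelled genes passed in every region.

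The sign was shared by all regions for 246 of the 257 called genes, 124 falls and 122 rises, where 37.8% of all genes share it (16.4% lower, 21.4% higher). Regional differences of 1 sign raise the mean, so this count is not independent of the call. In 162 called genes, 95 rises and 67 falls, each regional difference reached at least 50% of the mean. Falls and rises were shared unequally. Among falls with a shared sign the cerebellar difference was the smallest of the 3 for 84 of 124 genes, and its median ratio to the mean was 0.575, against 1.167 in cortex and 1.215 in striatum. Among rises it was the smallest for 44 of 122 genes, with median ratios of 0.943, 1.126 and 0.895. In an F-test of whether the 3 effects differ, 1 of 11114 genes passed (0.009%), and 459 had an unadjusted p under 0.05 (4.13%). None of the 257 genes passed it, and 55 of them had an unadjusted p under 0.05. Where arrays of the same mouse resemble each other, the p-values of this F-test are too large, so it can miss differences. A test that misses its threshold does not show that the effects are equal.

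The strictest call required the largest of the 3 regional p-values to pass after adjustment, with a shared sign. It was met by 8 genes (0.072%). Ech1, Cuedc2, Cln3, Dpagt1 and E430018J23Rik fell, and Fam117a, Snrnp35 and Ppp2r3c rose. Promoters of 3 of the 6 that could be matched hold the motif TNNGGGCA, the core that THAP1 is known to bind. Those 3 are printed because they hold the motif, and the matched promoters without it, that of Cln3 among them, are not. They run 5′ to 3′ on the gene's strand, from 250 bases before to 50 after the start, as given by RefSeq on GRCm38.p6. Capitals mark the motif on either strand, the reverse reading being TGCCCNNA.
Ech1 (chr7:28825088-28825387, plus strand): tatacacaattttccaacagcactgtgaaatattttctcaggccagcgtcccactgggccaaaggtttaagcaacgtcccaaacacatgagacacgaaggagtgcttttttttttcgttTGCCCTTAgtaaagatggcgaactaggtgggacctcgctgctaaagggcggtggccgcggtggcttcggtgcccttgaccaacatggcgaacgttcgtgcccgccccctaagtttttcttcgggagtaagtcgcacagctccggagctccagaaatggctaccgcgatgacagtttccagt
Cuedc2 (chr19:46338611-46338910, minus strand): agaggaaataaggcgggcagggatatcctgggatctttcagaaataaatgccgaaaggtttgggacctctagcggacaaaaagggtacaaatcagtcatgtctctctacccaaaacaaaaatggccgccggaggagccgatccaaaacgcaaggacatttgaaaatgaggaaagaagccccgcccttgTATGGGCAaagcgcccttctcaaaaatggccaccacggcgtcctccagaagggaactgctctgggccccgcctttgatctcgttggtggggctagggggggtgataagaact
Fam117a (chr11:95336768-95337067, plus strand): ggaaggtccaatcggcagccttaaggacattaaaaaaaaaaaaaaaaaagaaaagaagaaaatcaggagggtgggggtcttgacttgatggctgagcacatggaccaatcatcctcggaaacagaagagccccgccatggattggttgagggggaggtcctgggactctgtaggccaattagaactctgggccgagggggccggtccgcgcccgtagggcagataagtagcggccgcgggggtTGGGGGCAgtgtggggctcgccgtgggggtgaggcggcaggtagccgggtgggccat
The motif was found in 17.1% of 8265 tested genes with a promoter, in 25.8% of the 97 genes that fell and in 23.1% of the 104 that rose. Of genes with the motif 3.47% were called, and of genes without it 2.22%. Letters in this window are a description and not a binding site. The deposited values hold no measure of THAP1 binding.

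Ech1 encodes an isomerase of fatty acid oxidation. On log2 scale its values were 9.88, 10.10, 10.00 and 9.87 on control and 7.68, 7.63, 7.07 and 7.58 on knockout cerebellum arrays. In cortex they were 9.87, 9.65, 9.48 and 9.81 against 7.02, 7.18, 7.25 and 6.79, and in striatum 9.85, 9.82, 9.68 and 9.72 against 7.09, 6.78, 6.98 and 6.77. The genotypes lay far apart in every region, where over all genes the groups of 4 did not overlap for 2.77% in cerebellum, 8.18% in cortex and 3.79% in striatum. Its mean effect was -2.66 (SE 0.077, limma adjusted p = 3.91e-20). Cuedc2, whose protein has a ubiquitin-binding CUE domain, fell by 2.47 (SE 0.080, limma adjusted p = 3.10e-19), with control arrays from 9.75 to 10.55 and knockout arrays from 7.32 to 8.35. Its fall was largest in cortex, where the difference was -3.005, against -2.36 in cerebellum and -2.05 in striatum.

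Cln3, whose loss causes juvenile Batten disease and whose protein sits in the lysosomal membrane, fell by 1.61 (SE 0.098, limma adjusted p = 3.17e-12). Its 12 control values ran from 6.81 to 7.65 and its 12 knockout values from 4.76 to 5.97, so that no knockout array of any region reached a control array. Dpagt1, which catalyses the first step of N-glycan assembly, fell by 0.96 (SE 0.088), with regional differences of -0.88, -1.24 and -0.75. E430018J23Rik fell by 1.00 (SE 0.091) and had the most even effect of the 8, with -0.95 in cerebellum, -1.06 in cortex and -1.001 in striatum. For both genes the 4 knockout arrays lay below the 4 control arrays in each region.

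Fam117a had the largest rise of the called genes. Its values were 6.30, 6.22, 5.43 and 6.65 on control and 7.47, 7.70, 7.64 and 7.61 on knockout cerebellum arrays, 4.89, 4.73, 4.81 and 4.78 against 6.39, 6.05, 6.56 and 6.5 in cortex, and 6.16, 6.13, 5.36 and 5.83 against 7.25, 7.23, 7.38 and 7.11 in striatum. All knockout arrays of a region lay above its control arrays, and only 1 of the 4 control cortex arrays detected the probe. Over the regions the rise was 1.47 (SE 0.11, limma adjusted p = 7.38e-10). Snrnp35, a protein of the minor spliceosome, rose by 1.01 (SE 0.098). Its dimmer probe, detected on 2 of 12 control and 9 of 12 knockout arrays, was also higher (limma adjusted p = 0.0407 over all probes), with no fold given so near background. Ppp2r3c, a regulatory subunit of a serine/threonine phosphatase, rose by 0.94 (SE 0.064), with differences of 0.98, 0.82 and 1.03 in cerebellum, cortex and striatum.

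**Figure D2:**
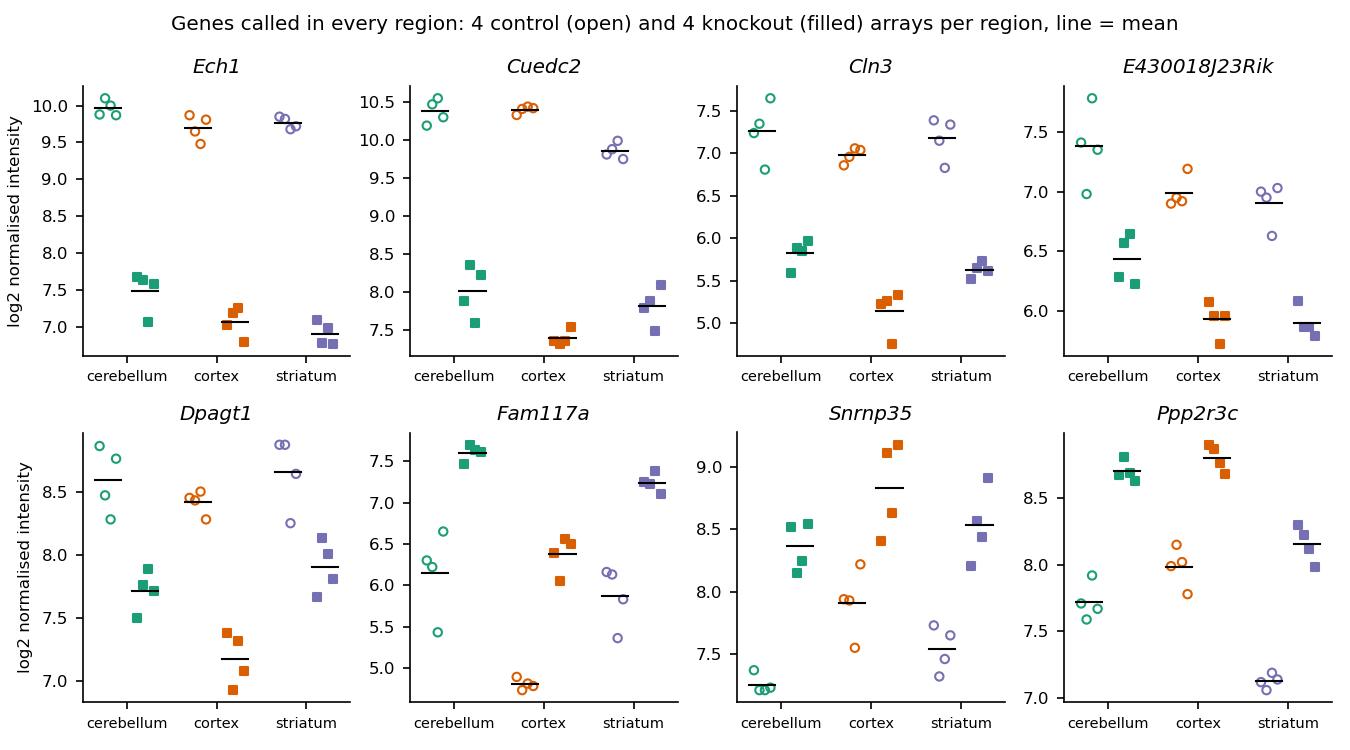
Log2 normalised intensity (y axis) of the 8 genes called in every region, with 4 control arrays (open circles) and 4 knockout arrays (filled squares) per region and a line at each group mean. In every panel and region the genotypes do not overlap, and for Ech1 the control arrays lie at 9.48 or above and the knockout arrays at 7.68 or below.

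With the standard error at its upper bound 16 genes passed (0.144%). Besides those 8 they were Prepl, Mfsd13a, Miga1, Zfp747 and probe ILMN_2688721, which fell, and Cyb5d2, Lyrm1 and Zfp597, which rose. Prepl, a serine hydrolase related to prolyl endopeptidases, fell by 1.04 (SE 0.11, limma adjusted p at the bound = 0.00707). Miga1, a mitochondrial fusion factor, fell by 0.80 (SE 0.094, at the bound 0.0267), and Mfsd13a, of the major facilitator superfamily of transporters, by 1.03 (SE 0.10, at the bound 0.00337). Cyb5d2, a haem-binding protein, rose by 1.00 on its brightest and by 0.89 on its other probe (limma adjusted p at the bound = 0.0267 for the former). Zfp747 fell by 0.84, Zfp597 rose by 0.59 and Lyrm1 by 0.76, and these and the unnamed probe (-0.74) are named here after their values were seen.

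The genotypes did not overlap in any of the 3 regions, in the same direction, for 27 of 11114 genes (0.243%), and all 27 were called, 15 lower and 12 higher. They include the 16 above. Chosen after their values were seen, the others that fell were Gdpd3 (-1.41), Lpcat2 (-0.71), Rpa2 (-0.53), the myelin tight junction gene Cldn11 (-0.44) and Ippk (-0.34). The others that rose were Cox6a2 (0.89), Imp4 (0.57), Aars2 (0.54), Nars (0.41), Trpm6 (0.39) and Ugcg (0.26). Rpa2, a subunit of the replication protein that binds single-stranded DNA, differed by -0.53, -0.51 and -0.56 in cerebellum, cortex and striatum. Aars2, the mitochondrial alanyl-tRNA synthetase, differed by 0.56, 0.62 and 0.45.

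Among the further large changes, Gdpd3, a phospholipase of the glycerophosphodiesterase family, fell by 1.41 (SE 0.22, limma adjusted p = 0.000360). Itgad, an integrin chain of leukocytes, fell by 1.18 (SE 0.16). Its dimmer probe was detected on 12 of 12 control and 3 of 12 knockout arrays and was lower too (limma adjusted p = 1.18e-05 over all probes). Probe ILMN_2597606 fell by 0.88. Rps15a, a protein of the small ribosomal subunit, rose by 1.15 with a wide error (SE 0.25, limma adjusted p = 0.00830). Its control values ran from 7.66 to 9.11 in cerebellum, 6.51 to 8.18 in cortex and 6.69 to 8.82 in striatum. Cox6a2, a cytochrome oxidase subunit of muscle and some neurons, rose by 0.89 (SE 0.15). Its probe was not well above background on any of the 4 control cerebellum arrays, so the difference there is a bound. Plvap, a protein of fenestrated endothelium, rose by 0.87, Cfap69, a protein of cilia and flagella, by 0.81 and Erdr1 by 0.78. None of these passed with the standard error at its upper bound.

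Small shared effects were defined as called genes with a shared sign and an absolute mean below 0.5 that passed in no single region. There were 137, 85 rises and 52 falls, with absolute means from 0.204 to 0.492. None passed with the standard error at its upper bound, since all 16 genes that did had larger means. The 10 rises and 10 falls with the smallest p are described below, and the call of none of these 20 ended when any 1 array was left out. Leaving out 1 array does not leave out a mouse that gave several. Leaving out all arrays of a region weakened them more, with 16 of 20 still past the threshold without cerebellum, 3 without cortex and 7 without striatum. Over all genes these settings gave 175, 37 and 96 calls, against 257 with all arrays.

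Bola2, an iron-sulfur cluster trafficking factor, was the only gene of the 20 that passed whichever region was left out (limma adjusted p 0.00825 to 0.0414). Its values were 10.09, 9.96, 9.98 and 10.31 on control and 10.96, 10.36, 10.27 and 10.81 on knockout cerebellum arrays, 10.38, 10.13, 10.49 and 10.48 against 10.72, 10.81, 10.67 and 10.70 in cortex, and 10.75, 10.51, 10.22 and 10.64 against 10.97, 11.04, 11.00 and 10.83 in striatum. The genotypes were separate in cortex and striatum and overlapped in cerebellum through the control value of 10.31 and the knockout value of 10.27. The mean difference was 0.43 (SE 0.076, limma adjusted p = 0.00106).

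Nars, the cytosolic asparaginyl-tRNA synthetase, was higher in every region. Its values were 9.71, 9.81, 9.67 and 9.35 on control and 10.17, 9.93, 9.98 and 9.93 on knockout cerebellum arrays, 9.78, 9.85, 9.74 and 9.82 against 9.97, 10.40, 9.87 and 10.46 in cortex, and 9.17, 9.59, 9.51 and 9.75 against 10.03, 9.87, 9.93 and 10.12 in striatum. No region had overlapping genotypes. Its mean effect was 0.41 (SE 0.075, limma adjusted p = 0.00188). Ugcg, the enzyme that makes glucosylceramide, had the smallest of these rises at 0.26 (SE 0.048, limma adjusted p = 0.00226), from control values between 10.48 and 10.76 to knockout values between 10.71 and 11.10. Its genotypes were separate within each region, and its call ended with median scaling in place of quantile normalization.

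The other 7 named rises lay between 0.33 and 0.42. They were Sdf4, a calcium-binding protein of the Golgi (0.42), Trpm6, a magnesium channel (0.39), Gtf3c6, a subunit of a transcription factor of RNA polymerase III (0.39), Bloc1s3, of a complex that forms lysosome-related organelles (0.38), Fam185a (0.36), Coq9, of coenzyme Q synthesis (0.35), and Nkrf, a repressor of NF-kappaB targets (0.33). A second probe did not move with the first for Trpm6 (0.02), Gtf3c6 (0.07) or Nkrf (-0.05), those of Trpm6 and Gtf3c6 being detected on 4 of 12 control arrays, and averaging the probes ended these 3 calls. The first probe of Trpm6 was itself detected on 8 of 12 control arrays. Median scaling ended the calls of Fam185a, Bloc1s3, Coq9, Gtf3c6 and Nkrf.

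**Figure D3:**
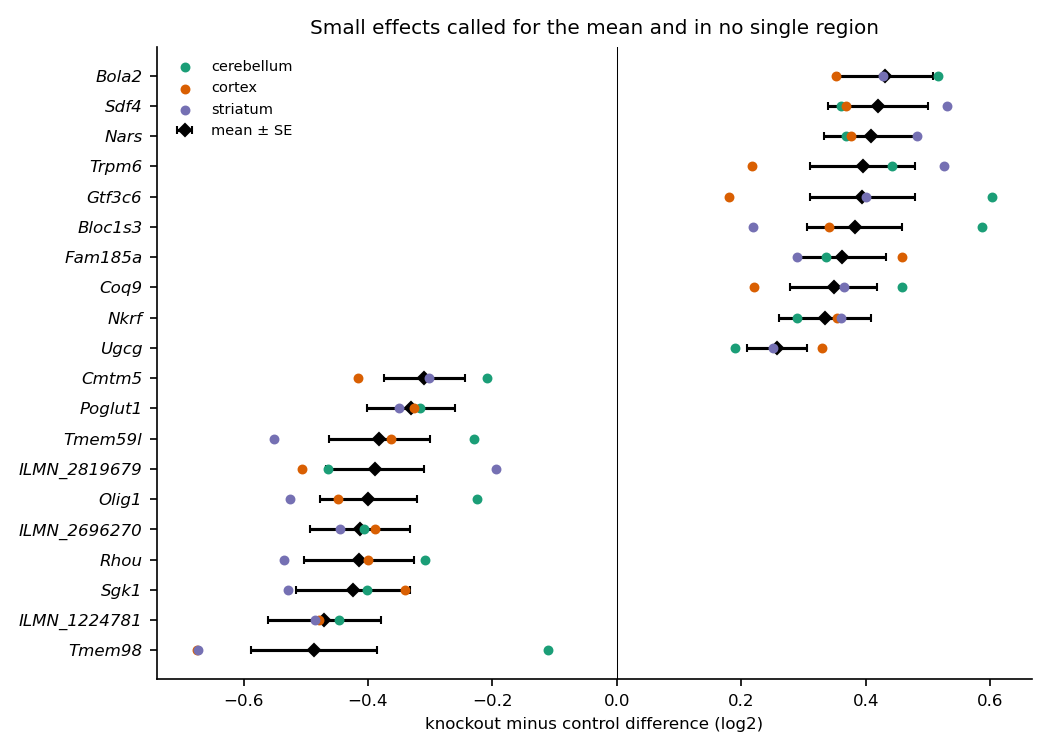
Knockout minus control differences (x axis, log2) of the 10 small rises and 10 small falls with the smallest p, with a dot for each region and a diamond with bar for the mean ± SE. By the rule that chose them, all regional differences share the sign of their mean, and the means run from -0.49 for Tmem98 to 0.43 for Bola2.

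Of the 10 named small falls, 3 were unnamed probes (-0.47, -0.41 and -0.39). Poglut1, a glucosyltransferase that modifies Notch, was among the most even falls. Its values were 9.35, 9.35, 9.29 and 9.23 on control and 9.46, 8.99, 8.84 and 8.68 on knockout cerebellum arrays, 9.54, 9.54, 9.31 and 9.41 against 9.28, 9.08, 9.06 and 9.08 in cortex, and 9.93, 9.81, 9.65 and 9.84 against 9.46, 9.32, 9.41 and 9.64 in striatum. The genotypes were separate in cortex and striatum, and in cerebellum 1 knockout array lay above all controls. The mean difference was -0.33 (SE 0.071, limma adjusted p = 0.00825), and the regional ones were -0.32, -0.33 and -0.35.

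Olig1, a transcription factor of the oligodendrocyte lineage, fell by 0.40 (SE 0.078, limma adjusted p = 0.00341). Cmtm5, a MARVEL-domain protein found in myelin, fell by 0.31, Tmem98, a membrane protein that in mouse binds the myelin regulatory factor, by 0.49, and Sgk1, a kinase induced by glucocorticoids, by 0.42. Rhou fell by 0.41, and Tmem59l, a membrane protein of brain, by 0.38. Tmem98 differed by -0.11 in cerebellum, -0.68 in cortex and -0.67 in striatum, so that its cerebellar value was far below its mean. Median scaling ended the calls of the 3 unnamed probes and of Olig1, Cmtm5, Rhou, Tmem59l, Poglut1 and Sgk1, but not that of Tmem98.

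In all, 52 gene lists were described by counts and medians, 14 of cell types and 38 of pathways, and 24 of them had no called member. Over all genes the median mean difference was 0.009 and 2.31% were called. ER chaperones and genes of the unfolded protein response had the highest median of the lists, 0.263 over 18 measured genes of 27 listed, with 0.369 in cerebellum, 0.231 in cortex and 0.212 in striatum. All 18 means were above 0, 12 with a shared sign, and 5 genes rose (27.8%). These were Pdia4 (0.39), Hsp90b1 (0.36), Dnajc3 (0.31), Herpud1 (0.20) and, outside the naming rule and named after its value was seen, Xbp1 (0.26). None passed with the standard error at its upper bound. With median scaling 1 of the 18 passed, 0 passed without the cerebellum arrays or without the cortex arrays, and 3 without the striatum arrays. Over all genes these settings gave 96, 175, 37 and 96 calls.

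The chaperone genes differed in how evenly they moved. Pdia4 is a disulfide isomerase of the ER lumen. Its values were 7.80, 8.08, 8.63 and 8.47 on control and 8.73, 8.70, 8.75 and 8.61 on knockout cerebellum arrays, 8.37, 8.35, 8.13 and 8.33 against 8.72, 8.90, 8.58 and 8.70 in cortex, and 7.87, 8.09, 7.72 and 8.50 against 8.43, 8.26, 8.27 and 8.36 in striatum. The genotypes were separate in cortex and overlapped in the other regions through 1 control array each. The mean difference was 0.39 (SE 0.089, limma adjusted p = 0.0142). Dnajc3, a co-chaperone that inhibits eIF2 kinases, rose by 0.31 (SE 0.075, limma adjusted p = 0.0211), with 0.11 in striatum. Xbp1, the spliced transcription factor of the response, rose by 0.26 (SE 0.068, limma adjusted p = 0.0327), with 0.46 in cerebellum, 0.21 in cortex and 0.13 in striatum.

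Hsp90b1, the ER form of the chaperone Hsp90, rose by 0.36 (SE 0.091, limma adjusted p = 0.0327), a call that ended when any 1 of 12 arrays was left out. That of Herpud1, a factor of ER-associated degradation, ended without control replicate 9 or 12. Averaging its probes ended it too, and the other probe differed by 0.14 (limma adjusted p = 0.3015 over all probes). The members that did not pass include Calr (0.45, limma adjusted p = 0.0883), Pdia6 (0.36, 0.160), Hspa5, the main ER chaperone BiP (0.35, 0.183), Pdia3 (0.34, 0.0741), Syvn1 (0.29, 0.0733) and Creld2 (0.26, 0.0942). Averaged over the 18 genes, arrays lay between 8.64 and 8.84 for control and 9.02 and 9.19 for knockout cerebellum, 8.74 and 8.86 against 8.93 and 9.05 in cortex, and 8.64 and 8.84 against 8.87 and 8.99 in striatum. The averages did not overlap in any region, which held for 2 of the 52 lists (3.85%). The other was fatty acid oxidation, which holds Ech1 and had no other called member among 24.

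The ER stress response element, CCAAT followed by CCACG after a gap of 9 bases, searched on either strand, is known to bind ATF6 with a partner factor. It was present in promoters of 12 of 8265 genes (0.145%), of which 7 were among the 17 chaperone genes with a promoter (41.2%). The list and the element are not independent, since such genes define the element. Over the 12 genes the median mean difference was 0.303, 10 were above 0 and 2 rose, Hsp90b1 and Dnajc3. Their promoters are shown with the element in capitals, from RefSeq on GRCm38.p6 as above. Hsp90b1 holds 2 copies, in opposite orientations.
Hsp90b1 (chr10:86705395-86705694, minus strand): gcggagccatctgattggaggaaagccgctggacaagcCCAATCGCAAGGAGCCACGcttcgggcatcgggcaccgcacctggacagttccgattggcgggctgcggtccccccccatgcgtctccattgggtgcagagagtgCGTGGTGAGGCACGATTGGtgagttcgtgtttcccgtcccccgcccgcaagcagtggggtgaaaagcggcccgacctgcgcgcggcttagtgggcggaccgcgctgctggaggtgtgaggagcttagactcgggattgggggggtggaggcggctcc
Dnajc3 (chr14:118937682-118937981, plus strand): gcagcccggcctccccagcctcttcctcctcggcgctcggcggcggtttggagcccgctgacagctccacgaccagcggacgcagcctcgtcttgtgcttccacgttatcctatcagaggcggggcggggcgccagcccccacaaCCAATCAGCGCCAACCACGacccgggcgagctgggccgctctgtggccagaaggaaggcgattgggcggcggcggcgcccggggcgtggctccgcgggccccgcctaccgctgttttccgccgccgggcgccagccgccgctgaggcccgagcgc
The 3 genes with the element outside the list whose means were above 0 were Ero1b, an oxidase of the ER (0.32), Pan2 (0.07) and Spats2l (0.05), none of which passed, and the 2 below 0 were Alg12 (-0.18) and Hnrnpa3 (-0.14).

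Targets of ATF4, the transcription factor of the integrated stress response, had a median of 0.14 over 33 measured genes, 23 above 0. The medians were 0.203 in cerebellum, 0.097 in cortex and 0.009 in striatum. Of the 33, 3 rose (9.09%), Nars, Atf5 and the cystine transporter Slc7a11, and none fell. None of the 3 passed with the standard error at its upper bound, and the list median was 0.054 without the cerebellum arrays and 0.088 with the mean of probes. Atf5, itself a transcription factor of the response, rose by 0.50 (SE 0.12, limma adjusted p = 0.0192), with 0.98 in cerebellum, 0.23 in cortex and 0.28 in striatum. Slc7a11 rose by 0.36 (SE 0.096, limma adjusted p = 0.0442), a call that ended when any 1 of 19 arrays was left out. Other aminoacyl-tRNA synthetases of the list did not pass, among them Eprs (0.18), Gars (0.14), Iars (0.15), Tars (-0.02) and Sars (-0.03). The motif TGATGNAA, a core of the element that ATF4 and its partners bind, was found in 3.01% of 8265 genes and in 10 of 28 list genes with a promoter, though such genes help define the element. Of genes with it 2.41% were called, and of genes without it 2.43%.

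Markers of mature oligodendrocytes and myelin had the lowest median of the lists, -0.51 over 27 measured genes of 33 listed, and all 27 means were below 0. Of these, 17 fell (63%) and none rose. The effect was not evenly shared, with medians of -0.111 in cerebellum, -0.607 in cortex and -0.68 in striatum. No member passed the F-test between regions. None passed for the mean with the standard error at its upper bound, and 6 of the 27 passed without the cortex arrays, 10 without the striatum arrays and 19 without the cerebellum arrays. Over all genes these settings gave 37, 96 and 175 calls.

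Mobp, a basic protein of central myelin, had the smallest p of the list. Its values were 11.38, 11.05, 11.53 and 11.64 on control and 11.17, 11.00, 11.42 and 10.98 on knockout cerebellum arrays, 11.27, 11.07, 11.23 and 11.00 against 10.75, 10.33, 10.61 and 10.17 in cortex, and 12.05, 11.71, 12.11 and 11.97 against 11.34, 10.86, 10.82 and 10.46 in striatum. The genotypes were separate in cortex and striatum and overlapped in cerebellum. The mean difference was -0.68 (SE 0.088, limma adjusted p = 1.69e-05), and its other 2 probes fell by 0.95 and 0.72. Opalin, a membrane protein of oligodendrocytes, fell by 0.87 (SE 0.13), Mal, a proteolipid of myelin, by 0.74 (SE 0.11), Mog, of the outer myelin surface, by 0.67 (SE 0.10) and Mag, the adhesion protein facing the axon, by 0.56 (SE 0.088). Mbp, which compacts the myelin sheath, fell by 0.18 on its brightest probe (SE 0.049, limma adjusted p = 0.0470), a call that ended when any 1 of 19 arrays was left out, and differed by -0.70 and -0.03 on its other probes. The brightest probe lay between 13.87 and 14.61 on all arrays, and whether it was saturated was not tested.

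Enzymes of sphingolipid and galactolipid synthesis divided. Of 25 measured, 5 fell and 1 rose (24%). Among those that fell are genes known to make myelin lipids, the hydroxylase Fa2h (-0.60), the galactosyltransferase Ugt8a (-0.53) and the ceramide synthase Cers2 (-0.40), and the rise was that of Ugcg. Fa2h and Ugt8a are also counted in the myelin list. Fa2h and Ugt8a differed by -0.09 and -0.01 in cerebellum, against -0.98 and -0.99 in striatum. Oligodendrocyte precursor markers had a median of -0.074 over 10 genes, with Olig1 as the only call (10%). Cholesterol synthesis had 18 of 19 means below 0 and a median of -0.127, and no member passed.

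**Figure D4:**
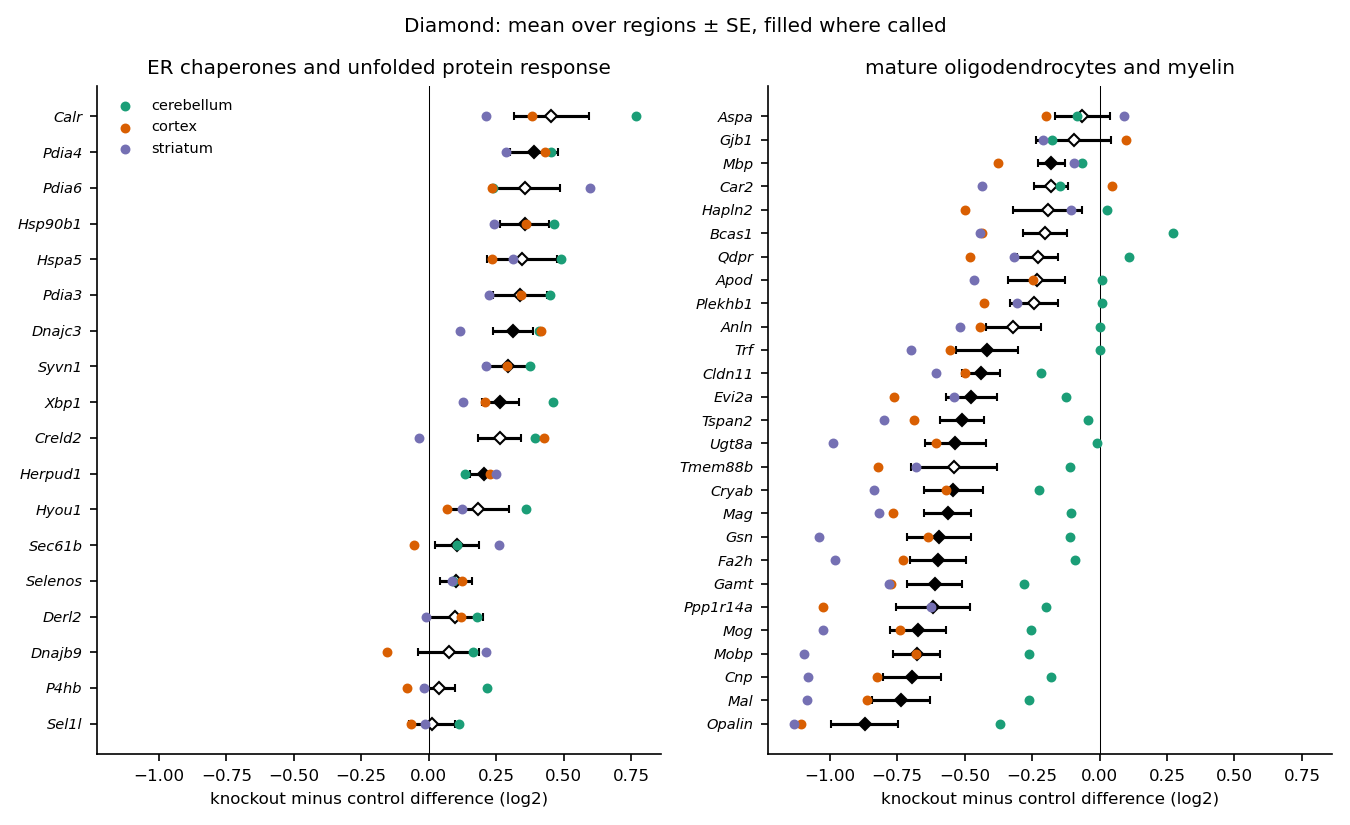
Knockout minus control differences (x axis, log2) of the measured members of the ER chaperone list (left, 18 genes) and the myelin list (right, 27 genes), with a dot for each region and a diamond for the mean ± SE, filled where the gene passed for the mean. Chaperone means all lie above 0 and myelin means all below 0, with most cerebellar myelin dots near 0.

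The remaining lists had few calls each, to be read beside the 2.31% called over all genes. Lysosomal genes gave Cln3, the hydrolase Gusb (-0.74, SE 0.12) and the sterol carrier Npc2 (-0.42), all falls, among 32 hydrolases and 31 membrane and proton pump genes. That was 3.12% of the hydrolases and 6.45% of the membrane and proton pump genes, with list medians of -0.014 and -0.023. The call of Npc2 ended without knockout replicate 16. Gusb differed by -0.82, -0.67 and -0.73 in cerebellum, cortex and striatum, and passed whichever region was left out. Of 41 proteasome genes, Psmb5, a catalytic subunit, was the only call (2.44%), with a difference of -0.83 (SE 0.20, limma adjusted p = 0.0190). That call ended with the authors' processed values and whichever region was left out. Of 42 ribosome biogenesis genes, 2 were called (4.76%). Imp4, of the small subunit processome, rose by 0.57 (SE 0.076, limma adjusted p = 2.88e-05). It also passed whichever region was left out, and rose by 0.51 on its other probe. Exosc2, of the RNA exosome, rose by 0.37. The call of Exosc2 ended whichever region was left out and with median scaling, and its other probe differed by 0.21 (limma adjusted p = 0.386 over all probes). Of 26 laminin and extracellular matrix genes, 2 rose (7.69%). They were the laminin chain Lama2 (0.71, SE 0.12, detected on 1 of 4 control cortex arrays) and the link protein Hapln4 (0.55, SE 0.10).

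Neuronal and activity genes added few calls. Drd2, the dopamine receptor of indirect-pathway striatal neurons, fell by 0.47 (SE 0.10, limma adjusted p = 0.00967). It was the only call among 13 striatal projection neuron markers (7.69%), one that ended with median scaling. Its differences were -0.33, -0.56 and -0.52 in cerebellum, cortex and striatum, and its level was lowest in cerebellum, between 4.41 and 5.39 on all 8 arrays. There 2 of the 4 knockout arrays detected it. Bdnf, a neurotrophin, rose by 0.51 (limma adjusted p = 0.0358), a call that ended when any 1 of 14 arrays was left out, and a dimmer probe, detected on 1 of 12 control and 4 of 12 knockout arrays, did not pass. Markers of astrocytes, microglia, endothelial cells, blood, choroid plexus and interneurons had no called member, and neither did 18 other inherited dystonia genes, whose median was 0.009. The 5 measured blood markers had a median of -0.371 even so, with -0.62 in cerebellum, -0.549 in cortex and 0.123 in striatum. Microglial markers averaged 7.27 to 7.63 on knockout and 7.47 to 7.70 on control cortex arrays, and their part in the results was not tested.

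**Figure D5:**
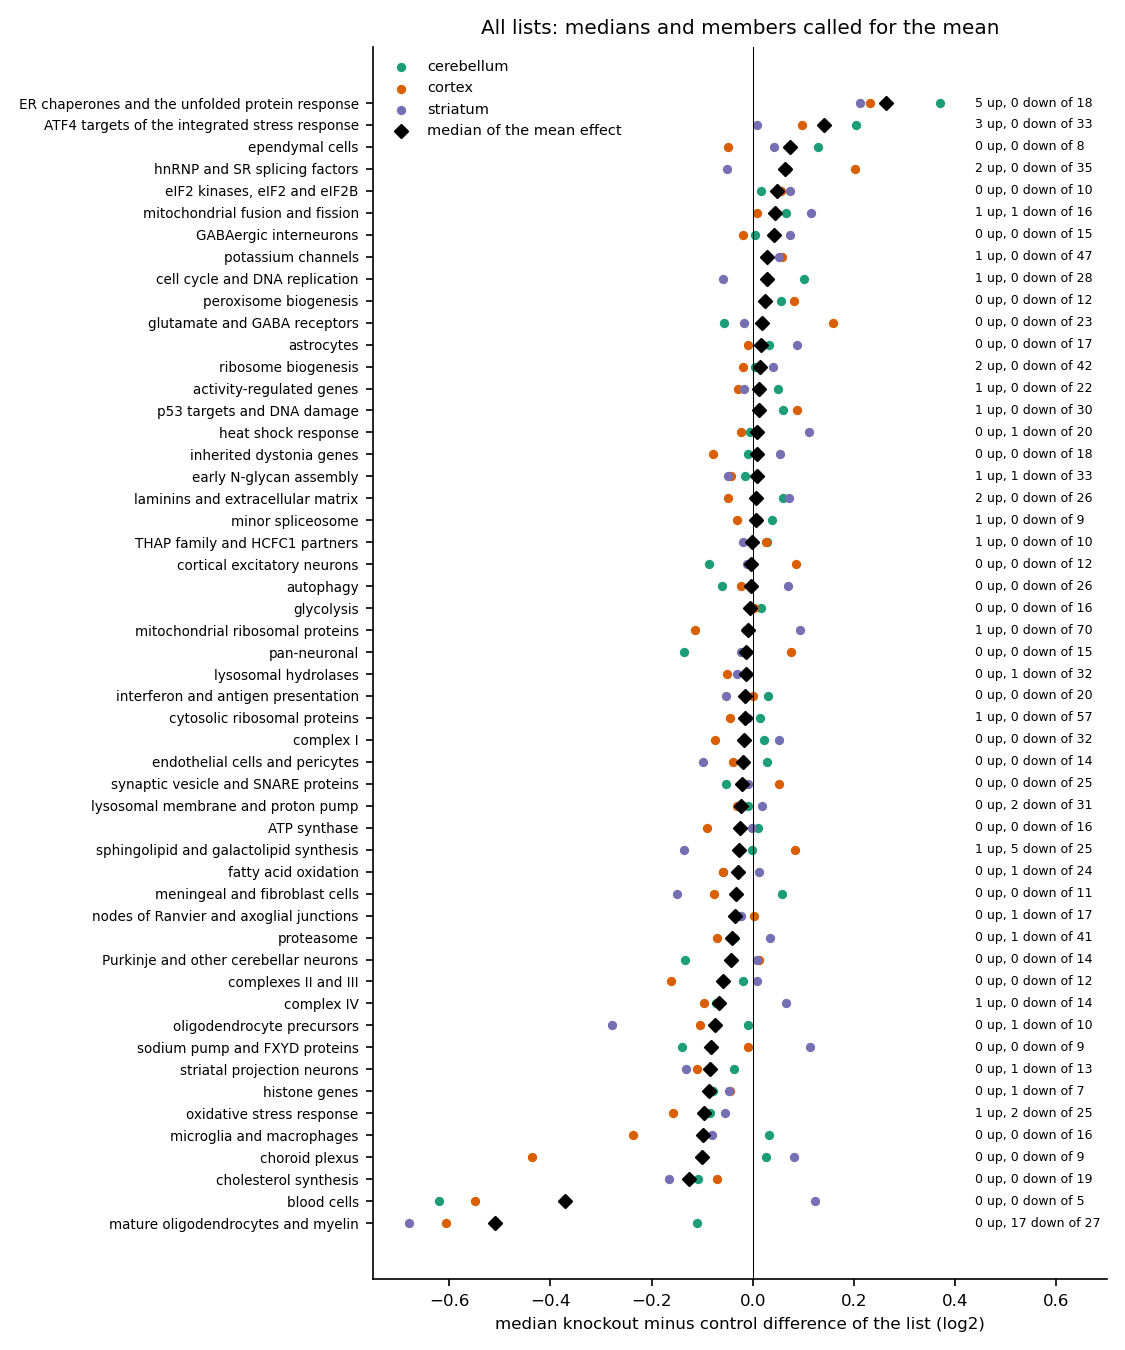
Median knockout minus control difference (x axis, log2) of each of 52 gene lists (y axis), with a dot per region, a diamond for the median of the mean effect and the number of members called at the right. The ER chaperone list lies highest at 0.263 and the myelin list lowest at -0.51.

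A second probe was available for 67 of the 257 called genes. Of these 89 other probes, 73 (82%) had the sign of the first and 49 (55.1%) had it with an unadjusted p under 0.05, where 11.8% of other probes of all genes had such a p in either direction. Called genes were more frequent than the 2.31% over all genes on chromosome 7, with 31 of 793 (3.91%), and on chromosome 8, which carries Thap1, with 23 of 560 (4.11%). On chromosome 7, neighbouring called genes included Rps15a, Smg1, Tmc7 and Lyrm1, which all rose, and Cln3, Apobr, Bola2, Gdpd3 and Mvp, of which Bola2 alone rose. On chromosome 8 they included Hapln4, which rose, with Tmem59l and Ccdc124, which fell, and, elsewhere on it, Herpud1 and Coq9, which rose, with Mt2 and Pllp, which fell. Other called genes near these are not named. The window of 15 genes on each side of Lyrm1, for example, held 6 calls with it. The shares by chromosome were not tested.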

How the data were processed

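Total RNA was extracted from frozen brain tissue with TriZol, amplified to biotin-labelled cRNA and hybridised to Illumina bead arrays, per the labels' protocols. The deposited raw table holds linear bead intensity and a detection p-value per probe and array, exported from BeadStudio per the submitters' processing notes. The authors' processed values are linear intensities too, deposited separately, and the sources used here do not state how they were corrected or normalized.

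Raw intensities were background corrected with limma 3.58.1 (R 4.3.3) from the detection p-values, with an offset of 16, quantile normalized and taken to log2. Changes of dim genes are understated on this scale. The filter on dim probes asked for detection (p below 0.01) by 4 arrays or more, and 14994 of 25697 probes met it. The brightest probe stood for a gene, which gave 11114 genes, 876 of them unnamed probes. Of 25697 probes, 23978 had 1 gene symbol, 0 had several and 1719 had none, and 23971 matched the annotation of GRCm38.p6, which renewed 8 symbols. Columns that matched no sample numbered 0.

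Group means of the 6 groups were fitted with lmFit and eBayes with an intensity trend. The mean of the 3 regional differences was tested two-sided, p-values were adjusted by Benjamini-Hochberg over all genes, and the threshold was 0.05. Standard errors at the upper bound are the mean of the 3 regional ones, with the degrees of freedom unchanged. The fit was checked on simulated data with independent arrays and the same effect in every region. That check does not cover shared mice or unequal regional effects. Gene lists were described and not tested. Promoters came from RefSeq, from 250 bases before to 50 after each start, and a gene held a motif if any of its promoters did. Figures were drawn with matplotlib 3.10.9.

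The genes named are, among calls with a shared sign, the 10 largest rises and falls and the 10 small rises and falls with the smallest p. Genes called in every region were added. So were, with no condition on a shared sign, calls with the smallest F-test p, called members of lists (up to 4 each), and Thap1, Mbp, Mog and Mag. The comparison, the lists and this rule were chosen with earlier results of these data known. Alternatives were other background, scaling, filter, probe, weight, offset, trend and model settings, the authors' values, leaving out each region and leaving out each array.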

Additional observations from a re-analysis of the deposited data

Results flagged for a closer look

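Among 26 genes shown by array, 156 groups of 4 were examined for an array far from the other 3, by Dixon's gap test at the 95% level, which chance passes in about 1 in 20 groups. It was passed in 10 groups. In genes called in every region these were Ech1 on knockout cerebellum replicate 23 (7.07, others 7.58 to 7.68), Cln3 on knockout cortex replicate 15 (4.76, others 5.23 to 5.33) and Snrnp35 on control cerebellum replicate 17 (7.37, others 7.21 to 7.23). Each of these arrays lay on its own genotype's side of the other group. In genes with smaller effects they were Sdf4 on control cortex replicate 10 (8.89, others 9.16 to 9.21) and Cmtm5 on knockout cerebellum replicate 23 (11.19, others 11.00 to 11.01). In the chaperone list they were Herpud1 on knockout cortex replicate 16 (10.90, others 11.04 to 11.06), Pdia4 on control cortex replicate 11 (8.13, others 8.33 to 8.37) and Xbp1 on control cortex replicate 9 (10.53, others 10.83 to 10.84). Opalin was high on control cortex replicate 9 (10.04, others 9.44 to 9.52) and control striatum replicate 1 (10.29, others 9.58 to 9.69).

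The knockout effect on Fxyd6, a regulator of the sodium pump, differed between regions (limma F-test, adjusted p = 0.0194). It was -0.64 in cerebellum, 0.14 in cortex and 0.12 in striatum, with a mean of -0.12 that did not pass (adjusted p = 0.282). The call between regions ended without replicate 17, 18, 21 or 22, all of them cerebellum arrays.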

How the results depend on the processing

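The count of 257 genes for the mean effect became 96 with median scaling (34 higher, 62 lower, or 35.4% higher against 48.2%), 16 with the standard error at its upper bound, 37 without the cortex arrays and 96 without the striatum arrays, and 180 to 291 without single arrays. Fewer arrays enter when a region is left out, and the cause of the change with median scaling was not tested. Without the cerebellum arrays 30.3% of 175 calls were higher. The 8 genes called in every region became 4 with median scaling and 6 to 9 without single arrays. The single gene that differed between regions became 0 with median scaling, without the filter on dim probes and without the intensity trend, 7 with the authors' values, and 0 to 2 without single arrays. Thap1 reversed to -0.13 as the mean of its probes. Of 81 named genes, 67 kept their call whichever single array was left out, 35 lost it with median scaling and 12 passed at the upper bound. A single array need not be the only array of its mouse. The medians of the chaperone and myelin lists kept their sign under all 38 alternatives (0.147 to 0.304 and -0.702 to -0.365). Some of these could not move a median, since the trend, additive-model and upper-bound settings leave the mean differences unchanged. Most of the others leave out a single array. No paired analysis was run, because the groups share no replicate numbers and no label says which arrays share a mouse. Signal near background limits, among others, Thap1, Cox6a2, Fam117a, Lama2, Trpm6, Itgad and, in cerebellum, Drd2.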

Other observations

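Some genes varied within a genotype in the same way in every region. Gdpd3 was lowest on knockout replicates 24 (5.37), 16 (4.96) and 8 (4.92) of cerebellum, cortex and striatum, where the other knockout arrays lay between 6.22 and 7.03. Rps15a was lower on control replicates 17 and 18 (7.66 and 8.24), 9 and 10 (6.57 and 6.51) and 1 and 2 (6.69 and 6.87) than on the other control arrays of the same regions (8.15 to 9.11). No label ties these numbers to mice, and whether these particular arrays share a mouse was not tested.

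Histone genes H2ac7 and H2ac15 and the oligodendrocyte enzyme Enpp6 passed for the mean although the cerebellar difference had the opposite sign. H2ac7 differed by 0.22 in cerebellum, -0.67 in cortex and -1.05 in striatum, H2ac15 by 0.18, -0.60 and -1.07, and Enpp6 by 0.09, -0.59 and -0.85. Their means were -0.50, -0.50 and -0.45. Of the 257 calls, 9 falls and 2 rises lacked a shared sign.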
